A study of Mus musculus with 24 samples.

Results

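The 39 genes described here are epithelial genes of the embryonic face: keratins, junction proteins and regulators that mark epithelium, measured on Mouse430_2 arrays of the lower jaw (mandible) and upper jaw (maxilla) of mouse embryos. They were chosen by gene symbol alone, and each gene is given by its brightest probe set on average over all 24 arrays. The symbols matched 69 probe sets, 17 genes had more than 1, and all 39 genes lay above the filter on low values, among 13837 genes that did so of 18193 genes with a probe set. By role they fall into 7 keratins (Krt5, Krt7, Krt8, Krt14, Krt15, Krt18, Krt19), 3 adhesion genes (Cdh1, Cdh3, Epcam), 8 desmosome genes (Dsp, Dsg2, Dsc2, Dsc3, Pkp1, Pkp3, Jup, Perp) and 6 regulators of transcription or splicing (Trp63, Grhl2, Grhl3, Ovol1, Esrp1, Esrp2). The rest are 4 tight junction claudins (Cldn3, Cldn4, Cldn6, Cldn7), 3 hemidesmosome genes (Itgb4, Itga6, Col17a1), 3 genes of membrane proteolysis (the protease St14 and its inhibitors Spint1 and Spint2) and 5 others (Rab25, Kdf1, Tmem30b, Ap1m2, Sfn).

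The outer and oral surface of the facial prominences is a thin epithelium over a mesenchyme that comes largely from the neural crest. Keratins form its intermediate filaments and desmosomes tie those filaments from cell to cell, while hemidesmosomes hold the basal cells to the basement membrane and claudins seal tight junctions. Krt5, Krt14 and Trp63 mark the basal layer of stratifying epithelium, whereas Krt8, Krt18 and Cldn3 are typical of simple epithelium. Grhl2, Grhl3 and Ovol1 are epithelial transcription factors, and Esrp1 and Esrp2 set epithelial splicing.

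The study profiled embryos at embryonic day 12.5 on a C57B6 background, from matings of Wnt1-Cre mice carrying 1 floxed Alk5 allele with mice carrying 2. Alk5, gene symbol Tgfbr1, is a type I receptor for TGF-beta, and Wnt1-Cre acts in the neural crest, not in the surface epithelium, so the knockout lies in the mesenchyme beneath the cells that express most of these genes. Mutants were picked by cleft palate and a defect of the skull, and controls were littermates whose own Alk5 and Cre alleles the labels do not give. The mandible and the maxilla were each split into a proximal and a distal end, which gives 4 parts, with 2 control arrays and 4 knockout arrays for each part (8 and 16 arrays in all). The labels number the replicates but do not say whether an array holds 1 embryo or a pool, so the p-values cover only the spread among these samples, which may be technical.

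Some facts about the arrays bear on every comparison. The knockout arrays numbered 1 and 2 stood apart: the 3' minus 5' signal averaged over the Gapdh and Actb control features, called the 3' signal below, which rises as RNA is degraded, was 1.13 ± 0.28 (log2, SD, n = 8) on them, against 0.18 ± 0.04 (n = 8) on the control arrays and 0.08 ± 0.06 (n = 8) on the knockout arrays numbered 3 and 4. The knockouts are therefore also given as 2 sets, knockouts 1 and 2 and knockouts 3 and 4. By Xist and Kdm5d, 0 of the 8 control arrays and 4 of 8 in each knockout set were female, and the proximal maxilla arrays of knockouts 1 and 2 were of the other sex than the remaining 3 parts of the same number, so these parts were not all of 1 embryo. Each array set holds 1 genotype, so the part of the arrays cannot be told apart from that of the knockout, while both sexes occur in each knockout set. Tgfbr1 read 11.98 to 12.69 on control and 12.07 to 12.64 on knockout arrays, which checks nothing, because the position of its probes relative to the deleted part was not given and cells outside the Cre lineage keep the gene.

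The end labels of the control mandible ran against each other. Over the 13798 tested genes that are not among the 39, the distal minus proximal difference of control 1 correlated at r = -0.78 with that of control 2. It correlated at 0.72 with knockout 3 and at 0.56 with knockout 4, while control 2 correlated at -0.77 and -0.64 with these knockouts. With knockouts 1 and 2 the correlations were weaker, at -0.002 and 0.18 for control 1 and at -0.04 and -0.26 for control 2. In the maxilla the correlation was -0.35 between the controls and ranged from -0.09 to 0.30 among the knockouts, so its ends did not repeat well either. These values are across genes, which are not independent replicates. Alx1, a patterning gene of the facial mesenchyme, read 11.19 in the distal and 5.52 in the proximal mandible of control 1, and 5.65 and 11.64 in the arrays labelled distal and proximal of control 2. Means over both ends of a jaw are the same whichever array is which. The distal maxilla array of control 1 also stood apart: among the 8 control arrays it was the lowest for 11 of the 39 genes and the highest for 9, and its mean over 10 genes of nasal, otic and sensory epithelium, 9.24, was the highest of the 24 arrays. The proximal maxilla array of control 1 was the lowest control for 18 of the 39, and its mean over 12 neuronal genes was 11.72, above the 6.38 to 10.40 of the other arrays.

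Most of the 39 genes were expressed at moderate to high levels in all 4 parts. The mean over all 39 lay between 8.48 and 9.76 (log2) on the control arrays, between 8.95 and 9.80 on knockouts 1 and 2, and between 9.20 and 9.94 on knockouts 3 and 4. Ovol1 was the dimmest, at 4.93 to 6.59, close to the filter at 6.07.

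The basal genes Krt5, Krt14 and Trp63 had their lowest value on the same control array. Krt5, the basal layer keratin, read 6.67, 10.68 and 11.75 (lowest, median and highest) on the 8 control arrays, 10.58, 11.02 and 11.30 on knockouts 1 and 2, and 10.65, 11.47 and 11.98 on knockouts 3 and 4. Krt14, its filament partner, read 8.14, 10.79 and 11.92 on controls, 10.20, 10.89 and 11.17 on knockouts 1 and 2, and 10.49, 11.57 and 12.03 on knockouts 3 and 4. Trp63, the transcription factor of the basal lineage, read 8.29, 10.13 and 10.95, then 9.93, 10.31 and 10.61, then 10.17, 10.93 and 11.21. In all 3 genes that array was the distal maxilla of control 1, the control range covered nearly all of the knockout range, and the groups overlapped.

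The simple epithelial genes were high on that same array. Its Krt8 value was 11.36, its Krt18 value 11.33, its Cldn3 value 10.73 and its Cldn7 value 11.24, each the highest of the 8 controls. Otx2, a head patterning gene of nasal and neural tissue, read 10.76 there. Over all 8 controls Krt8 read 8.15, 9.10 and 11.36, against 9.09, 10.20 and 11.39 on knockouts 1 and 2 and 8.07, 9.86 and 10.72 on knockouts 3 and 4. The plots of all 39 genes by array and of 6 genes by part show these arrays.

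The general epithelial genes spread less. Cdh1, E-cadherin, read 9.59, 10.65 and 11.06 (lowest, median, highest) on controls, 9.84, 10.67 and 10.95 on knockouts 1 and 2, and 10.51, 10.69 and 11.14 on knockouts 3 and 4. Epcam read 10.29, 10.84 and 12.44, then 10.45, 10.89 and 12.07, then 11.07, 11.36 and 12.25. Esrp1 read 8.59, 9.78 and 10.37, then 9.66, 10.12 and 10.70, then 9.74, 10.17 and 10.64. In all 3 genes the lowest control lay below every knockout array, and the rest of the ranges overlapped. Krt18 read 8.39, 9.05 and 11.33 on controls, 8.96, 10.13 and 11.10 on knockouts 1 and 2, and 8.22, 9.51 and 10.25 on knockouts 3 and 4, and Grhl2 read 8.52, 9.19 and 9.83, then 9.54, 9.61 and 10.27, then 8.88, 9.11 and 9.49. Both had their highest median in knockouts 1 and 2.

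**Figure D1:**
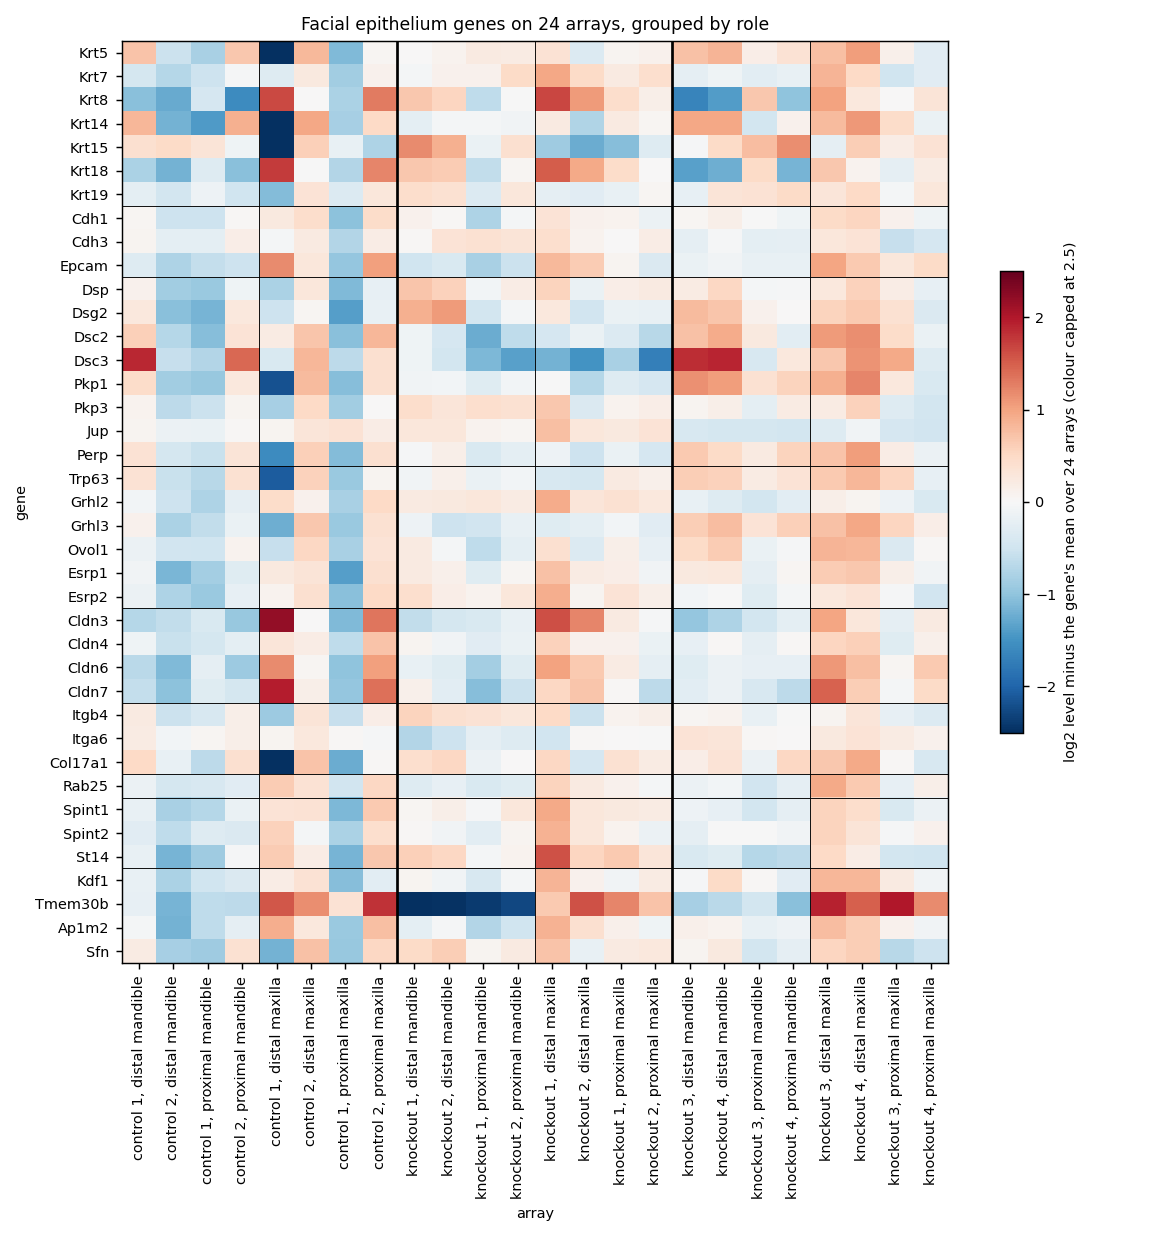
Heat map of the 39 genes (rows, grouped by role) on the 24 arrays (columns, in blocks for control, knockouts 1 and 2, and knockouts 3 and 4). Colour is the log2 value minus the gene's mean over all 24 arrays, with the scale ending at 2.5. The distal maxilla column of control 1 is low for Krt5, Krt14 and Trp63 and high for Krt8, Krt18 and the claudins.

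**Figure D2:**
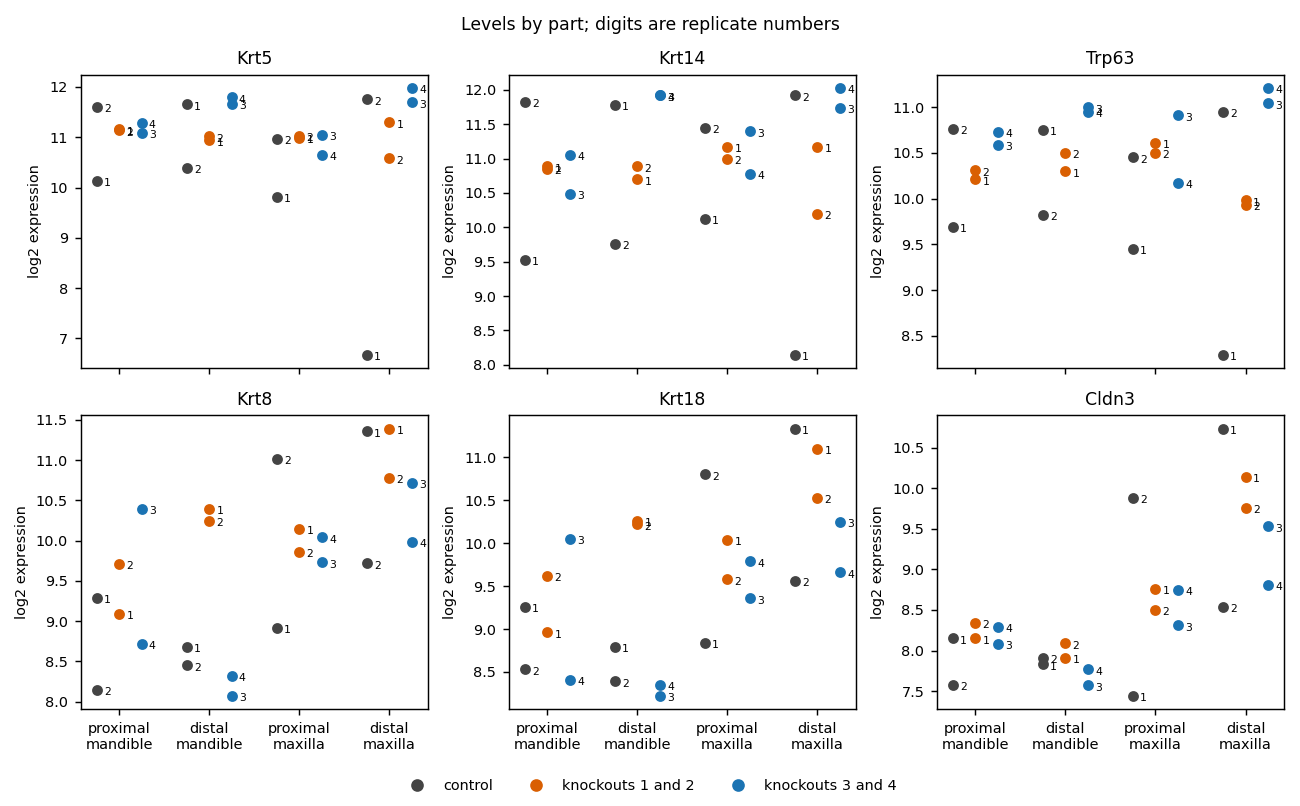
Log2 level of Krt5, Krt14, Trp63, Krt8, Krt18 and Cldn3 on each array by part and array set, each digit being the replicate number of 1 array. The basal genes drop to 6.67 (Krt5) and 8.14 (Krt14) on 1 control array, on which Krt8 and Krt18 reach 11.36 and 11.33.

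Whether loss of Alk5 in the neural crest moved the epithelial genes was asked first over all 4 parts, on means over the parts of each numbered control or knockout, which gives 4 knockout and 2 control means. Of the 39 genes, 34 had a higher mean in the knockouts, with a median log2 difference of 0.31 against -0.05 over all genes tested. In limma 0 of 39 passed an adjusted p of 0.05 (0% of all genes did), and 7 of the 39 had an unadjusted p under 0.05, as did 965 of 13837 genes. The smallest p-values belonged to Dsp, which links desmosomes to keratin filaments, at 0.68 ± 0.15 (SE; adjusted p = 0.598), Kdf1, a regulator of keratinocyte differentiation, at 0.49 ± 0.11 (0.605), and Esrp1 at 0.52 ± 0.13 (0.611). In these bulk tissues fewer cells of a type and less RNA per cell cannot be told apart.

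The 6 means of Dsp were 11.19 and 11.63 in controls 1 and 2 and 12.20, 12.07, 12.01 and 12.08 in knockouts 1 to 4. All 4 knockout means of Dsp lay above both control means. The same held for 8 more of the 39 genes (Krt7, Krt19, Dsg2, Esrp1, Cldn6, Spint2, Kdf1 and Ap1m2), or 9 of 39, where 8.73% of all genes had knockout means wholly above the controls. Wholly below them lay 0 of the 39, against 15.4% of all genes.

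For Krt5 the control means were 9.57 and 11.18, further apart than any pair of the 4 knockout means, which were 11.10, 10.94, 11.37 and 11.43. Its difference was 0.84 ± 0.44 (adjusted p = 0.707). The sets of knockout arrays did not move alike, as the plot of both differences for each gene shows, and each is described next. Both are compared with the same 8 control arrays.

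**Figure D3:**
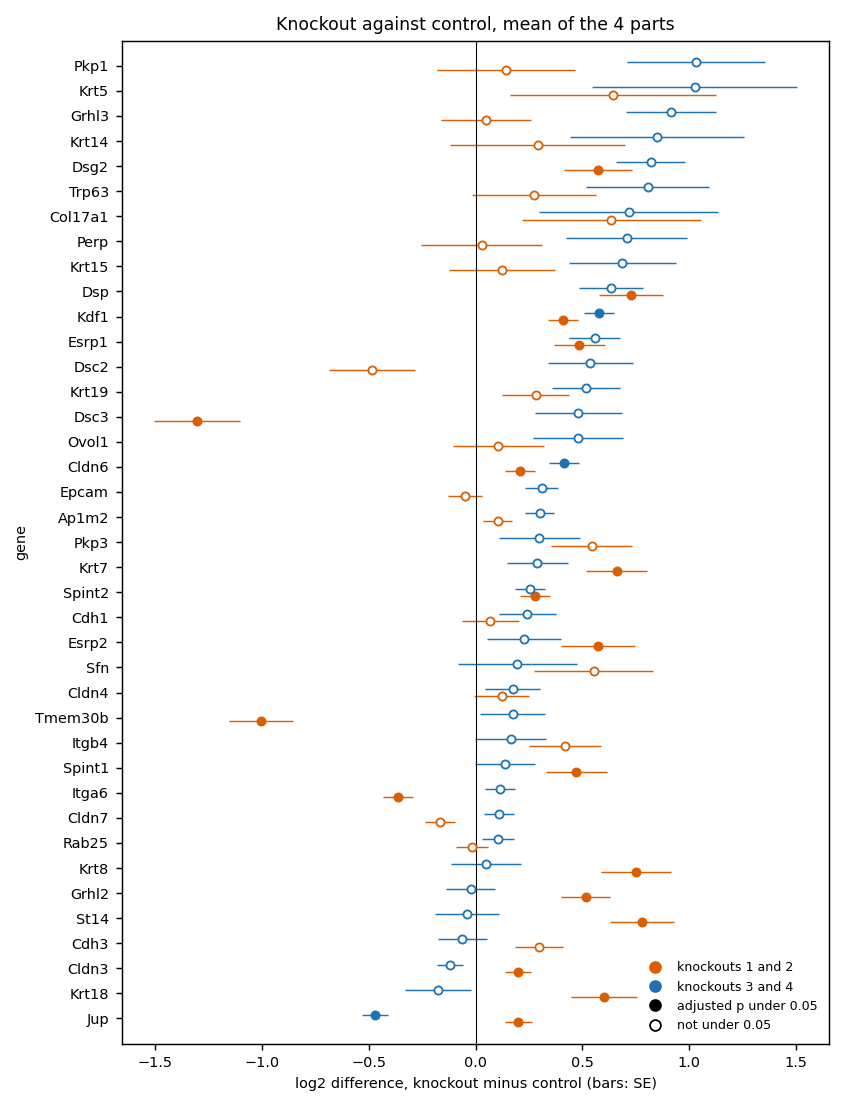
Log2 difference from control (± SE) of each of the 39 genes for knockouts 1 and 2 and for knockouts 3 and 4, over all 4 parts. Filled points passed an adjusted p of 0.05, which were 18 genes in knockouts 1 and 2 and 3 genes in knockouts 3 and 4. Dsc3 and Tmem30b lie at -1.30 and -1.0 in the first set.

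In knockouts 1 and 2, the arrays with the high 3' signal, 15 of the 39 genes were higher and 3 lower than control, on a fit in which 58% of all genes passed (23.7% higher and 34.3% lower). The median difference was 0.28 against -0.06 over all genes. The simple epithelial keratins and the protease group were among the higher genes: 3 of 7 keratins (Krt7, Krt8, Krt18) and 3 of 3 protease genes passed. For 0 of the 39 did the arrays lie wholly above or wholly below all control arrays, against 12.5% and 17.9% of all genes. The largest rises were those of St14, a membrane protease also called matriptase, Krt8, and Dsp.

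St14 read 7.20, 8.25 and 9.04 (lowest, median, highest) on the 8 control arrays and 8.32, 8.90 and 9.96 on the 8 of knockouts 1 and 2. The arrays overlapped, and the difference was 0.78 ± 0.15 (adjusted p = 0.00609). Krt8 differed by 0.75 ± 0.16 (0.0101), and its neighbour Krt18, with 0 protein-coding genes between them, by 0.60 ± 0.15. Krt8 gave 0.75, 0.70 and 0.72 on its 3 probe sets.

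Dsp read 10.77, 11.36 and 12.14 on the control arrays and 11.70, 12.07 and 12.55 on knockouts 1 and 2. The highest control arrays lay within the knockout range, and the difference was 0.73 ± 0.15 (adjusted p = 0.00804). A second probe set of Dsp gave only 0.13.

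The lower genes were a desmosomal cadherin, a flippase subunit and an integrin. Dsc3, the cadherin desmocollin 3, read 7.77, 8.51 and 10.39 on controls and 6.8, 7.35 and 8.40 on knockouts 1 and 2, where most arrays lay below every control, and it fell by 1.30 ± 0.20 (adjusted p = 0.0028). Tmem30b, a partner of phospholipid flippases, read 7.97, 9.22 and 10.93 on controls and 6.26, 8.32 and 10.72 on knockouts 1 and 2, a wide and overlapping spread that follows the jaws, and fell by 1.0 ± 0.15 (0.00251). Itga6, the laminin receptor subunit of hemidesmosomes, read 11.17, 11.29 and 11.51 on controls and 10.50, 10.97 and 11.28 on these knockouts. It fell by 0.36 ± 0.07 (0.00628), while a second probe set of it gave -0.06.

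Regulators also rose in this set: Grhl2 by 0.52, Esrp1 by 0.49 and Esrp2 by 0.57, or 3 of 6 regulators in all. The other genes that passed were Kdf1 (0.41), Dsg2 (0.57), Jup (0.20), Spint1 (0.47), Spint2 (0.28), Cldn3 (0.20) and Cldn6 (0.21). The probe sets of Cldn3 disagreed: the one used gave 0.20 and the others -0.23, 0.43 and 0.46. Those of Dsg2 disagreed too: the others above the filter level on all 24 arrays gave -0.36, 0.43 and -0.13. A second probe set of Spint2 gave -0.04. Another of Grhl2, above the filter level on all 24 arrays, gave only 0.14. With each array centred on its median, 9 genes were higher and 5 lower, in place of 15 and 3.

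Genes of other tissues moved on the same arrays. Of 21 mesenchymal genes, 1 was higher and 14 were lower in knockouts 1 and 2, and their mean level was 10.98 to 11.44 per array against 11.39 to 11.97 in controls. All 7 erythroid genes that passed the filter were higher, with a mean level of 10.82 to 11.65 against 9.77 to 9.997. The part of mesenchyme and of blood in the epithelial values was not tested. That of RNA quality cannot be told apart from the contrast, because the 3' signal was 0.71 to 1.498 on these arrays and 0.13 to 0.22 on controls, with no overlap. Without control 1 the count was 9 higher and 8 lower, and then Dsc2 (-0.79), Perp (-0.44), Pkp1 (-0.40), Krt14 (-0.38) and Grhl3 (-0.29) were among the lower genes; without control 2 it was 25 higher and 3 lower, and without knockout 1 it was 6.

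In knockouts 3 and 4, whose 3' signal was near that of the controls, 2 of the 39 genes were higher, Kdf1 and Cldn6, and 1 was lower, the junction protein Jup. Over all genes 4.64% passed, 1.08% higher and 3.56% lower. The median of the 39 was 0.30 against -0.03 over all genes, 33 of 39 lay above 0, and 16 had an unadjusted p under 0.05. Arrays lay wholly above or below all controls for 0 of the 39, against 2.44% and 4.7% of all genes.

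Jup, plakoglobin, which binds cadherins in desmosomes and adherens junctions, read 8.63, 8.87 and 9.15 on controls and 8.32, 8.37 and 8.71 on knockouts 3 and 4. It fell by 0.47 ± 0.06 (adjusted p = 0.0219), and only the highest knockout array reached the lowest controls. Jup was higher than control in knockouts 1 and 2, so its sign differed between the sets.

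Kdf1 read 7.10, 7.86 and 8.54 on controls and 7.89, 8.31 and 9.01 on knockouts 3 and 4, and rose by 0.58 ± 0.07 (adjusted p = 0.0182). A second probe set of Kdf1 gave -0.00. Cldn6, a claudin of embryonic epithelium, read 8.15, 8.80 and 10.44 on controls and 8.94, 9.20 and 10.34 on these knockouts. The groups overlapped over most of their range, and the difference of the means was 0.41 ± 0.07 (0.039).

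Larger differences did not pass. Krt5 differed by 1.03 ± 0.48 (adjusted p = 0.246) and Pkp1, a desmosomal plaque protein, by 1.03 ± 0.33 (0.127). The outcome depended on single replicates: without control 2 Krt5 was at 1.83 and Pkp1 at 1.57, and without control 1 Grhl3 was at 0.58. Control 2 itself lay much nearer to these knockouts than control 1 did. Its mean was 11.18 for Krt5, against 11.37 and 11.43 in knockouts 3 and 4. For Pkp1 it was 9.12, against 9.64 and 9.59.

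The 2 knockout sets carry the same genotype label but differ in array set, RNA quality and embryos, which cannot be told apart. Knockouts 1 and 2 had 7 of the 39 genes higher and 9 lower than knockouts 3 and 4, where 62.5% of all genes passed (27.9% higher and 34.6% lower). Jup differed by 0.67 ± 0.06 (adjusted p = 0.00042), St14 by 0.82 ± 0.15 (0.0046), Krt18 by 0.78 ± 0.15 (0.00638) and Krt8 by 0.70 ± 0.16 (0.0121). The desmocollins were lower in knockouts 1 and 2, Dsc3 by -1.79 ± 0.20 (0.00081) and Dsc2 by -1.02 ± 0.20 (0.00606), as was Tmem30b by -1.18 ± 0.15 (0.00126).

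For 3 of the 39 genes the arrays of the 2 sets did not overlap at all. Jup read 8.85 to 9.54 on knockouts 1 and 2 and 8.32 to 8.71 on knockouts 3 and 4, and Grhl2 read 9.54 to 10.27 and 8.88 to 9.49. Grhl3 ran the other way, at 6.68 to 7.12 and 7.36 to 8.16. Another probe set of Grhl2, above the filter level on all 24 arrays, gave a difference of -0.065 between the sets. Of all genes, 16.3% were wholly higher and 19.5% wholly lower in this comparison. The 3' signal of the 2 sets did not overlap either, and its part cannot be told apart from the contrast. A single control mean adds nothing to the spread, so leaving out either control must give the same count. The count was 25 without control 1 or control 2, and 10 without knockout 1 or knockout 3.

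Since both control arrays that stood apart were maxillary, the sets were also compared in each jaw alone, a choice made after the data were seen. Each numbered control or knockout was averaged over both ends of the jaw, so each group in these tests held 2 means. In the mandible, knockouts 3 and 4 had 14 of the 39 genes higher than control and 1 lower (15.6% of all genes passed, 5.12% higher and 10.4% lower). The higher genes were 5 of 8 desmosome genes (Pkp1, Dsg2, Dsp, Dsc2, Perp), 5 of 6 regulators (Grhl3, Trp63, Esrp1, Ovol1, Esrp2), 2 of 7 keratins (Krt5 and Krt14), Epcam and Kdf1. Krt15, also a basal keratin, did not pass, at 11.05 in controls and 11.37 in these knockouts (adjusted p = 0.198). Ovol1 was dim, at 5.23 to 5.82 on control mandible arrays and 5.57 to 6.37 on these knockouts, around or below the filter at 6.07. Over all parts, second probe sets of Epcam and Kdf1 gave -0.165 and -0.004 in these knockouts. The median over the 39 was 0.32, against -0.03 over all genes.

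Pkp1 read 9.44, 8.03, 8.11 and 9.23 on the 4 control mandible arrays and 10.11, 9.36, 10.02 and 9.54 on the 4 of knockouts 3 and 4. Only the highest control array lay within the knockout range. The means over both ends differed by 1.05 ± 0.07 (adjusted p = 0.00204), an SE that leaves out the spread between the ends. Grhl3, a Grainyhead factor of the differentiating surface epithelium, read 7.29, 6.58, 6.39 and 7.02 in control and 7.80, 7.54, 7.97 and 7.78 in knockout, with no overlap, and rose by 0.95 ± 0.10 (0.00726).

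Trp63 read 10.75, 9.69, 9.82 and 10.76 on the control and 11.0005, 10.59, 10.95 and 10.73 on the knockout mandible arrays, which overlapped, and rose by 0.56 ± 0.07 (0.00905). Krt5 rose by 0.51 ± 0.08 (0.0134) and Krt14 by 0.62 ± 0.11 (0.0195). The mandible means of Trp63, Krt5 and Krt14 were 10.25, 10.94 and 10.72 in controls and 10.82, 11.46 and 11.35 in these knockouts. Jup fell in the mandible too, by 0.39 ± 0.05 (0.0102).

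Against the same control mandible arrays, several junction and splicing genes were higher in either set on the probe sets used. Over all parts, other probe sets of Dsp and Dsg2 gave less or the opposite in knockouts 1 and 2, and another of Grhl2 gave less, as given above. Dsp differed by 0.80 in knockouts 1 and 2 and 0.61 in knockouts 3 and 4, Dsg2 by 0.79 and 0.82, Esrp1 by 0.61 and 0.67, Esrp2 by 0.76 and 0.41, and Kdf1 by 0.34 and 0.50, and each of these passed. In knockouts 1 and 2 the basal genes Krt5, Krt14 and Trp63 did not pass. There 18 of the 39 were higher and 4 lower (66.3% of all genes passed, 27.1% higher and 39.2% lower), with St14 at 0.87 ± 0.06 (adjusted p = 6.66e-05), Grhl2 at 0.63 ± 0.05 (0.00016), Krt8 at 1.22 ± 0.30 (0.0121) and Tmem30b at -1.83 ± 0.18 (0.000266).

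In the mandible of knockouts 3 and 4, 1 of 21 mesenchymal genes was higher and 3 were lower (median -0.11), and in knockouts 1 and 2 it was 3 higher and 17 lower (median -0.79). Of 36 further epithelial genes outside the 39, 8 were higher and 2 lower in knockouts 3 and 4, and 14 and 7 in knockouts 1 and 2. The share of epithelium in each dissection was not measured, so its part in these values was not tested. In the maxilla alone 0 of the 39 passed in limma in either set, where 30.1% and 0.0795% of all genes did, and 3 of the 39 in each set had an unadjusted p under 0.05. Between the sets, 12 of the 39 were higher and 12 lower in knockouts 1 and 2 in the mandible (69.2% of all genes passed, 30.9% higher and 38.3% lower), and Jup (0.73) was higher and Dsc3 (-1.90) lower in the maxilla (37.4%).

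Taken part by part, with 4 knockout against 2 control arrays, 0 of the 39 genes passed in limma in any part. Of all genes, 0%, 0.0145%, 0.00723% and 0.00723% passed in the proximal and distal mandible and in the proximal and distal maxilla, in that order, and 0, 4, 2 and 3 of the 39 had an unadjusted p under 0.05. The medians of the 39 were 0.24, 0.47, 0.19 and 0.25. Without control 2 the counts were 1 in the proximal and 3 in the distal maxilla. In the proximal mandible the smallest p-values were those of Esrp2 (0.57 ± 0.35), Dsp (0.53) and Krt19 (0.51).

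In the distal mandible Dsg2, the desmosomal cadherin desmoglein 2, read 10.46 and 9.14 on the control arrays and 11.08, 11.25, 10.98 and 10.88 on the knockouts, a difference of 1.25 ± 0.42 (adjusted p = 0.366). All 4 knockouts lay above both arrays labelled distal, but the 9.14 is from control 2, whose end labels ran against those of control 1, and its array labelled proximal read 10.45. With both mandible arrays of control 2 left out the difference was 0.59 (0.921). Dsp differed there by 0.88 and Esrp1 by 0.83. In the proximal maxilla Kdf1 read 7.10 and 7.91 on controls and 8.09, 8.38, 8.40 and 8.08 on knockouts, a difference of 0.73 ± 0.24 (0.530), with Dsp at 0.75 and Dsg2 at 0.70.

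In the distal maxilla Krt5 read 6.67 and 11.75 on the controls and 11.30, 10.58, 11.69 and 11.98 on the knockouts. The controls lay on either side of most knockouts, and the difference of 2.18 ± 0.85 (adjusted p = 0.903) comes with the array of control 1 described above. Krt7 differed there by 0.74 and Col17a1, a hemidesmosome collagen, by 1.65. The difference of the genotype effect between the jaws passed for 0 of the 39 genes (0% of all genes; 1 of the 39 at an unadjusted p under 0.05), and between the ends for 0 (0.00723%; 0 unadjusted). Without control 2 the first count was 4, and without control 1 the second was 4.

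The mandible and the maxilla differed in Tmem30b more than in any other of the 39 genes. The simple epithelial genes Krt8, Krt18, Epcam, Rab25 and the claudins were also lower in the mandible in value. The sequences before the start of 5 genes with this direction are printed below, and those of the claudins are not. The RefSeq table (GRCm38.p6) held a promoter for 21 of the 39. Each line gives the 250 bases before the start, 5' to 3' on the gene's strand, with CACCTG or its reverse complement CAGGTG in capitals, the E-box bound by the Snail and Zeb repressors of epithelial genes. They lie at chr12:73546396-73546645 on the minus strand (Tmem30b), chr17:87635729-87635978 on the plus strand (Epcam), chr3:88548280-88548529 on the minus strand (Rab25), chr15:102004343-102004592 on the minus strand (Krt8) and chr15:102027966-102028215 on the plus strand (Krt18).
Tmem30b: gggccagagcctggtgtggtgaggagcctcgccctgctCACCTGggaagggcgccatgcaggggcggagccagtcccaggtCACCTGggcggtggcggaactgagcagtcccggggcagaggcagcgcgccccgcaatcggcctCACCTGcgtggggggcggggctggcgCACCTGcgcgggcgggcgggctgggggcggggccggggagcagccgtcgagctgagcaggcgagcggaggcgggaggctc
Epcam: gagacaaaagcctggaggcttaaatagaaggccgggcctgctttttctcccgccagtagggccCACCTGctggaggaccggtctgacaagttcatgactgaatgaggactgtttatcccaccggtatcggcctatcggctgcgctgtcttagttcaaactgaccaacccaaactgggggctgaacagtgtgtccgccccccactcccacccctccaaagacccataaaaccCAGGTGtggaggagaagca
Rab25: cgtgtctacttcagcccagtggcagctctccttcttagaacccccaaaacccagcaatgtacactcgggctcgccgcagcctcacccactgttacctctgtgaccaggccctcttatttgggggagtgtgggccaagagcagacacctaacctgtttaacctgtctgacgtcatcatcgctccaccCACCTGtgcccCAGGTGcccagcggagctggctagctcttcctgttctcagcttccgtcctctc
Krt8: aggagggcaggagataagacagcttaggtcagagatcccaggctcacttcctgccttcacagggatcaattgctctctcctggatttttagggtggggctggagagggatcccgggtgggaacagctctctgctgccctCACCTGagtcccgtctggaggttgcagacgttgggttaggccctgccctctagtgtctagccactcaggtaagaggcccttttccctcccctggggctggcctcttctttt
Krt18: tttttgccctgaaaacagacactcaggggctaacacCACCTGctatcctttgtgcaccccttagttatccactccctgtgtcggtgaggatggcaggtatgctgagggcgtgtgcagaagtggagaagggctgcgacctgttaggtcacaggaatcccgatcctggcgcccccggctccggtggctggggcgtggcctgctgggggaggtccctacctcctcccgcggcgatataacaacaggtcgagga

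The Tmem30b stretch held 4 matches, those of Epcam and Rab25 2 each, and those of Krt8 and Krt18 1 each. Among the claudins, which share the direction but are not printed, Cldn3 held 0 matches and Cldn4 and Cldn6 held 1 each. Cldn7 has several starts, with 0 and 2 matches. Krt5, which was not lower in the mandible, held 1. Whether the matches go with the jaw direction was not tested. On both strands CACCTG was found in 14 of the 21 promoters and in those of 19.4% of 27025 genes. The Grainyhead motif AACCGGTT was found in 0 of 21 (0.137% of genes) and the AP-1 motif TGANTCA in 1 of 21, that of Cldn4 (7.82%). A match is only a string of letters, and no binding was measured.

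In controls Tmem30b read 8.93, 8.49, 7.97 and 8.47 on the 4 mandible arrays and 10.68, 9.5, 10.29 and 10.93 on the 4 maxilla arrays. Every mandible array lay below every maxilla array, as for 4.08% of all genes, and the difference was -1.89 ± 0.31 (adjusted p = 0.0136). It was the 1 gene of the 39 that passed, where 0.687% of all genes did (0.39% lower), and 11 of the 39 had an unadjusted p under 0.05. Krt8 differed by -1.61 ± 0.47 (0.159). The call was lost without control 2 (adjusted p = 0.0587) and without knockout 1, 2, 3 or 4 (0.0599 to 0.0692), since those arrays share in the estimate of the spread. Without control 1 it was 12 of the 39, all lower, and without control 2 it was 9, of which 8 were higher.

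In knockouts Tmem30b read 6.26, 7.47 and 8.67 (lowest, median, highest) on the 8 mandible arrays and 9.78, 10.49 and 11.13 on the 8 maxilla arrays. The jaws again did not overlap, as for 0.441% of all genes, and the difference was -2.97 ± 0.22 (adjusted p = 6e-06). It was -3.55 ± 0.31 (2.5e-05) in knockouts 1 and 2, where 6.27% of all genes passed (3.59% lower), and -2.40 ± 0.31 (0.00351) in knockouts 3 and 4, where 0.658% did (0.369% lower). The difference between the sets, -1.14 ± 0.44, did not pass (0.546; 0.094% of all genes did). The difference between knockouts and controls, -1.09 ± 0.39, did not pass either (0.995).

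Epcam, an adhesion molecule of simple epithelium, read 10.45, 10.98 and 11.18 on knockout mandible arrays and 10.90, 11.82 and 12.25 on maxilla arrays, which overlapped at their edges. It was lower in the mandible by -0.80 ± 0.22 (adjusted p = 0.0396), though a second probe set gave only -0.11. Rab25, a small GTPase of epithelial recycling, read 7.06, 7.27 and 7.47 and then 7.33, 7.73 and 8.49, a difference of -0.57 ± 0.12 (0.0111). These 3 of 39 genes passed, where 7.71% of all genes did (3.34% higher and 4.37% lower). Without knockout 2, 3 or 4 the count was 1, Tmem30b, without the distal maxilla array of control 1 it was 6, and without control 1 or control 2 it was 14.

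The spread in that fit includes the control arrays that stood apart. Leaving out either control leaves a single control array per part, which adds nothing to the spread. The count is then that on the knockout arrays alone by construction. On the 16 knockout arrays alone, a choice made after the data were seen, 13 of the 39 genes were lower in the mandible and 1 higher (11.4% of all genes passed, 6.95% lower and 4.46% higher). The lower genes were 3 of 4 claudins (Cldn3 at -1.05 ± 0.12, Cldn6 at -0.83 and Cldn7 at -0.79), 3 keratins (Krt8 at -0.96, Krt18 at -0.78 and Krt7 at -0.35), St14, Spint1, Spint2, Ap1m2 (-0.54), Epcam, Rab25 and Tmem30b. The higher gene was Krt15, a basal keratin, at 0.91 ± 0.16 (adjusted p = 0.00379). Krt5, Krt14 and Trp63 were not among the genes that passed.

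Genes of neurons and of nasal, otic and sensory epithelium were in part lower in the mandible too. In the knockouts 6 of 12 neuronal genes and 6 of 10 genes of nasal, otic and sensory epithelium were lower in the mandible and 0 and 1 higher, and the mean level of the second list was 7.07 to 7.63 on mandible and 7.77 to 9.02 on maxilla arrays. Otx2 read 3.63 to 4.04 on knockout mandible and 4.14 to 9.58 on knockout maxilla arrays. Salivary and pharyngeal epithelial genes ran the other way, 3 of 7 higher in the mandible and 0 lower with a median of 0.14, and so did skeletal muscle genes, 5 of 10 higher with a median of 2.89. Of 9 periderm and stratified oral genes 0 passed in limma, and 2 had an unadjusted p under 0.05. Their part in the epithelial values was not tested.

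**Figure D4:**
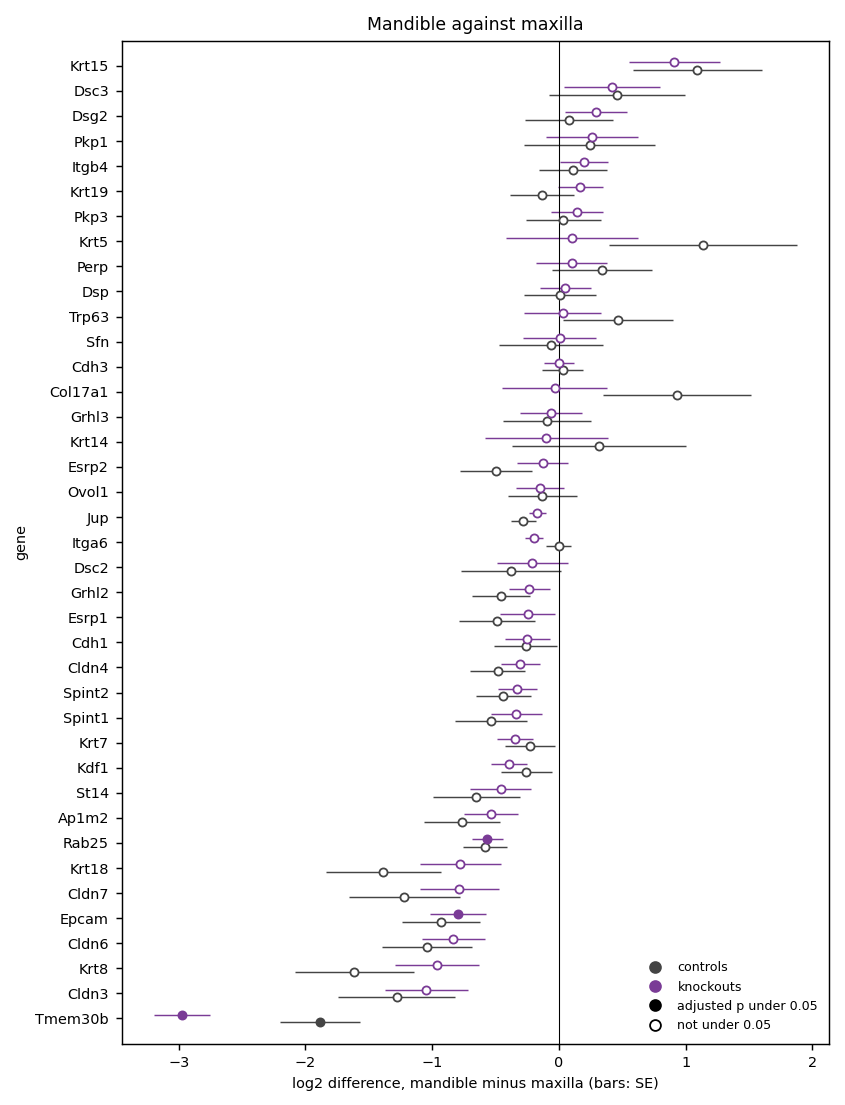
Log2 difference of mandible minus maxilla (± SE) for each of the 39 genes in controls and in knockouts, from the fit of all 24 arrays. Tmem30b lies lowest in both, at -1.89 and -2.97, and Krt5, Krt14 and Trp63 have wide errors in the controls.

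Distal and proximal ends gave 0 of the 39 genes past the threshold in limma in controls, knockouts, knockout mandible or knockout maxilla (0%, 0.463%, 1.09% and 0.065% of all genes), with 1, 11, 3 and 8 of the 39 at an unadjusted p under 0.05. Most genes were higher at the distal end in value, 28, 36, 33 and 36 of 39. Kdf1 had the smallest p in controls (0.44 ± 0.20, adjusted p = 1.00), and Rab25 in knockouts (0.38 ± 0.12, 0.237). The arrays labelled distal and proximal in the mandible of control 2 gave the opposite sign: 4 of 39 genes were above 0 there, with a median of -0.58, against 33 of 39 and 0.57 in control 1 and 27 to 31 of 39 in the 4 knockouts. The plot of each array pair shows this inversion. Without control 2, 7 of the 39 were higher at the distal end in controls, and without knockout 2, 1 was in knockouts.

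On the knockout arrays alone, again a choice made after the data were seen, the distal end was higher in 3 of 39 genes in the mandible and 6 of 39 in the maxilla (3.11% and 1.29% of all genes passed, 1.48% and 0.903% higher). The 3 in the mandible were desmosomal cadherins. Dsc3 differed by 1.01, 0.91, 2.25 and 1.63 in knockouts 1 to 4, all above 0, with a mean of 1.45 ± 0.28 (adjusted p = 0.0154). Dsg2 differed by 0.95 ± 0.18 (0.0151) and Dsc2 by 0.76 ± 0.18 (0.0499).

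The 6 in the maxilla were Cldn3 (0.98 ± 0.16, adjusted p = 0.0199), Krt7 (0.74), Ap1m2 (0.66), Epcam (0.66), Rab25 (0.60) and Cdh3, P-cadherin (0.49). Cldn3 differed by 1.38, 1.26, 1.22 and 0.06 in knockouts 1 to 4, so that knockout 4 hardly differed between its ends. Across the tested genes outside the 39, the maxillary end differences of the knockouts correlated at -0.09 to 0.30, as given above. Leaving out control 1 or control 2 gives the same result as leaving out both by construction, since a single control array per part adds nothing to the spread. Over both jaws 11 of the 39 were higher at the distal end and 0 lower (3.43% of all genes passed, 1.85% higher): Ap1m2 (0.51), Dsc2 (0.67), Dsg2 (0.64), Epcam, Ovol1, Esrp1, Rab25, Sfn, Cldn7 (0.70), St14 and Dsc3.

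**Figure D5:**
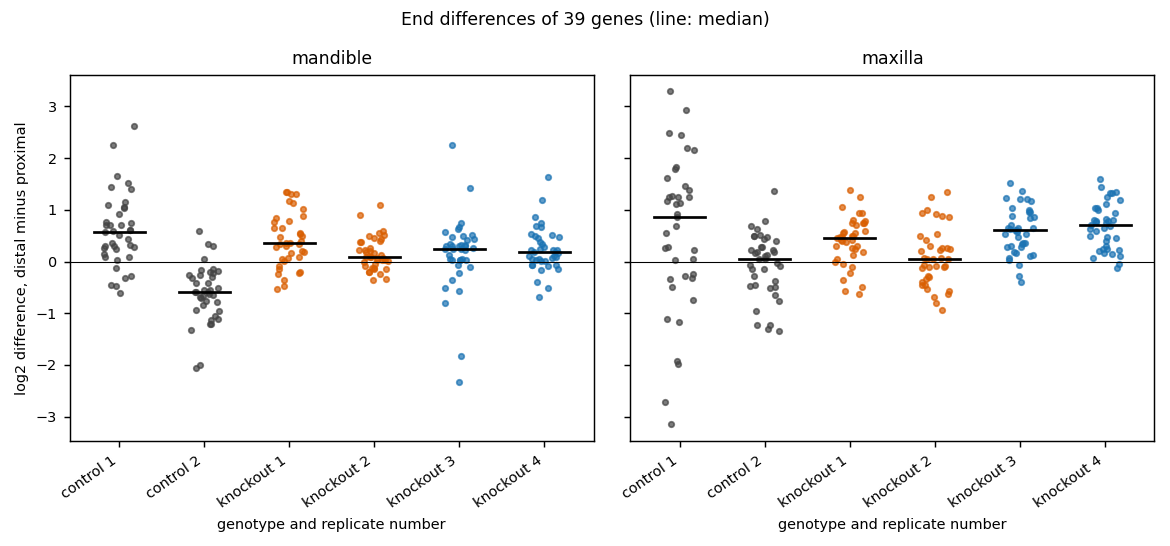
Log2 difference of the distal minus the proximal array for the 39 genes (1 point per gene) in each control and knockout, with mandible and maxilla apart and a line at the median. In the mandible the median is 0.57 in control 1 and -0.58 in control 2, and between 0.09 and 0.35 in the knockouts.

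Other epithelial genes, from a list of 36 that are not among the 39, moved in both directions. In knockouts 1 and 2, 8 were higher and 7 lower, where 23.7% and 34.3% of all genes were, led by the surface ectoderm factors Tfap2c (1.42) and Tfap2a (1.09) and by Krt17 (-1.24) and Mal2 (-0.68). In knockouts 3 and 4, 0 of the 36 passed in limma and 12 had an unadjusted p under 0.05. Of 17 oral, dental and signalling genes 2 were higher and 3 lower in knockouts 1 and 2, and 1 and 0 in knockouts 3 and 4. Of 9 periderm and stratified oral genes it was 1 and 4, and then 0 and 0.

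Among 8 repressors of epithelial genes and regulators of epithelial to mesenchymal transition, 1 was higher and 2 were lower in knockouts 1 and 2, and 0 and 0 in knockouts 3 and 4. Of 7 TGF-beta superfamily ligands (Tgfb1, Tgfb2, Tgfb3, Bmp2, Bmp4, Bmp7 and Inhba), 5 were lower in knockouts 1 and 2 and 1 in knockouts 3 and 4. None was higher in either set, and which cells made these ligands was not measured. Salivary and pharyngeal genes gave 2 higher and 2 lower of 7, and then 0 and 0. Of 15 endothelial genes 1 was higher and 10 were lower in knockouts 1 and 2, and 0 and 2 in knockouts 3 and 4. Of 12 macrophage genes it was 3 and 3, and then 1 and 0, of 12 neuronal genes 0 and 2, and then 0 and 0, and of 10 nasal, otic and sensory genes 0 and 2, and then 0 and 0. Of 10 skeletal muscle genes 0 passed in limma in either set, at an unadjusted p too.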

How the data were processed

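Total RNA from 24 dissected tissue samples was hybridised to 1-colour Affymetrix arrays. The table the authors deposited gives log2 values for each probe set. RMA, per the submitters' processing notes, made them; its version and whether all arrays were processed together are not given in the sources used here. The table held 45101 probe sets, of which 64 control features served only to describe the arrays. Probe sets with several symbols were not used, among them 1 shared by Krt14 and Krt17. The number of arrays limits the precision.

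A gene was tested where its probe set exceeded log2 6.07, the 40th percentile over all probe sets but controls, on at least 2 arrays. Differences were tested in R 4.3.3 by the moderated test of limma 3.58.1 (lmFit, eBayes, 2-sided), with Benjamini-Hochberg adjustment over 13837 genes at 0.05 and no test over a list. For comparisons over all parts, each numbered control or knockout was first averaged over its 4 parts. Contrasts by part came from a fit of all 24 arrays in which the knockout sets were pooled. Contrasts between jaws and between ends came from a separate fit of the 24 arrays, with the knockout sets kept apart. Comparisons of the sets within a jaw used means over both ends of that jaw. The fits on knockout arrays alone left the controls out. In leave-outs, a group of 1 array is assumed to vary like the others. The script was tested on simulated data. Alternatives covered the filter, centring, probe set averaging, single replicates, sex, the 3' signal and a replicate block. The members, lists, tests and named genes were chosen with earlier results of these data known.

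In each comparison the members past the threshold were named, or the 3 largest each way where over 6 passed, with the rest given as counts, or the 3 with the smallest p where none passed. Krt5, Krt14, Krt8, Krt18, Cdh1, Epcam, Dsp, Trp63, Grhl2 and Esrp1 were set to be given by array set; other members named beyond this rule were chosen after their values were seen. Replicate numbers gave no sign of pairing controls with knockouts: the deviations of control 1 from 2 and of knockout 1 from 2 correlated at r = -0.30 over all genes. That value cannot show whether parts with the same number came from 1 embryo. Between parts, the deviations of knockout 3 from 4 correlated at 0.068 to 0.35. Those of knockout 1 from 2 correlated at -0.313 to 0.217, and those of control 1 from 2 at -0.679 to 0.586. No 2 arrays were duplicates (highest r = 0.9953).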

Additional observations from a re-analysis of the deposited data

Results flagged for a closer look

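Dixon's test at 95% marked 1 array as far from the other 3 in 7 of 156 groups of 4 knockout arrays, where chance marks about 1 in 20 groups. The ratio of the gap to the range is given for each. In the proximal maxilla the array of knockout 4 was low for Krt5 (0.854, 10.65 against 10.99 to 11.05) and for Dsp (0.900, 11.66 against 12.04 to 12.09), and the array of knockout 3 was high for Pkp1 (0.845, 9.24 against 8.55 to 8.65). The same array of knockout 4 had a mean of 10.40 over the neuronal genes. In the distal maxilla the array of knockout 2 was low for Cldn4 (0.872, 9.63 against 10.06 to 10.12) and Kdf1 (0.975, 8.28 against 9.01 to 9.03). In the proximal mandible the array of knockout 1 was low for Cdh1 (0.874, 9.84 against 10.51 to 10.60) and Cldn6 (0.848, 8.41 against 8.95 to 9.05).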

How the results depend on the processing

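Counts are of the 39 genes past the threshold. The share of all genes under each setting is not given here, so a change in count is not a result about the 39. With the 3' signal as a covariate they were 3 for knockout against control over all parts (from 0), 0 for knockouts 1 and 2 (from 18), 0 for knockouts 3 and 4 (from 3), 0 between the knockout sets (from 16) and 1 in the proximal maxilla (from 0). Under it St14 became -1.08, Krt8 -1.36 and Itga6 0.44 in knockouts 1 and 2 against control, and St14 became -1.23, Krt18 -1.43 and Krt8 -1.64 between the sets; since the 3' signal of knockouts 1 and 2 does not overlap that of the other arrays, the covariate nearly equals these contrasts and the lost calls say nothing about RNA quality. With sex as a covariate they were 11 and 0 for the 2 sets. With the replicate block they were 10 over all parts, 10 in knockouts 1 and 2, 2 in the proximal and 6 in the distal mandible and 1 in the distal maxilla; it made no other count differ by over 1.5 times, it could not be fitted for knockouts 3 and 4 against control or between the sets, which share no numbers, and the shared numbers are not known to mark shared samples. With the numbers of the controls crossed, a choice made after the data were seen, knockouts 1 and 2 gave 18. With only the 2 sets compared in the fit, knockouts 3 and 4 gave 1 and the sets differed in 25. With 12 groups the distal mandible gave 1, and with 8 group means the jaws in controls gave 0. In the mandible alone knockouts 3 and 4 gave 15, and in the maxilla alone the sets gave 0 and 0 against control and 2 between them. Between the jaws in controls the count was 0 without the mandible arrays of control 2 and 0 without the distal maxilla array of control 1; in knockouts it was 6 without that array. On knockout arrays alone it was 14 between the jaws and 11, 3 and 6 between the ends (both jaws, mandible, maxilla). The cause of the other changes was not tested.

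Leaving out each replicate in turn gave 0 to 0 over all parts, 6 to 28 for knockouts 1 and 2, 0 to 20 for knockouts 3 and 4 and 10 to 25 between the sets. By part it gave 0 to 0 in both mandible parts, 0 to 1 in the proximal and 0 to 3 in the distal maxilla. Between the jaws it gave 0 to 12 in controls and 1 to 14 in knockouts. Between the ends it gave 0 to 7 in controls, 0 to 11 in knockouts, 0 to 3 in the knockout mandible and 0 to 6 in the knockout maxilla, and for both interactions 0 to 4. Of the other values of named genes, 627 kept their side of the threshold, 33 newly passed it and 67 no longer did. A further 6 changed sign and passed in the main or the alternative fit, all 6 under the 3' covariate. Changes of sign where neither fit passed are counted among the 627.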
